A study of Mus musculus with 4 samples.

Results

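Expression of 10 transcription factors was followed through 4 RNA-seq libraries of mouse mammary basal cells and of colonies grown from them. These factors act in the basal lineage of the mammary gland or in its progenitors. The factors were taken from a list of names (Trp63, Trp73, Sox9, Sox10, Runx1, Bcl11a, Tbx2, Myc, Klf4 and Klf5) and matched to the files by NCBI Gene number, and 10 of 10 were found among the 17630 genes listed in each library.

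The study asked how sympathetic nerves act on mammary stem cells, which lie in the basal layer. The labels call all samples primary mammary basal cells of WT genotype. Each condition has 1 library, so no difference below has a replicate check and no test was run. Control basal cells (treatment none) and 6-OHDA basal cells were sorted from mice, by the gate CD24 positive and CD29 high after removal of cells with CD31, CD45 or TER119. 6-OHDA (6-hydroxydopamine) is a toxin taken up by noradrenergic nerve endings, and it was injected under the skin. Control colonies and SP colonies were grown in Matrigel, a basement membrane gel, from basal cells, with epidermal growth factor and insulin, transferrin and selenium in the medium. By staining, the paper found both basal and luminal cells in such colonies. SP is salbutamol, an agonist of the β2 adrenergic receptor, together with phenylephrine, an agonist of α1 receptors. The titles carry the number 0 for the control colonies and 200, without a unit, for the SP colonies. That the library numbered 0 is the untreated colony control was read from its title together with the series' design. How many mice of which age stand behind each library is not stated in the methods or labels.

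The mammary epithelium has an inner luminal layer and an outer basal layer, whose cells contract to move milk and rest on the basement membrane. The basal layer is kept by p63, a relative of the tumour suppressor p53 that turns on keratins and the adhesion proteins of basal cells, while SOX and RUNX factors act in its progenitors. MYC drives growth and ribosome production, and the Krüppel-like factors KLF4 and KLF5 stand for differentiation and proliferation in many layered epithelia. Several of these factors are made from several promoters or splice forms with different activity, and a value per gene adds these together.

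Values are FPKM (fragments per kilobase of transcript, scaled to the total of fragments in the library), given here for control cells, 6-OHDA cells, control colonies and SP colonies in this order. A difference is that of log2(FPKM + 1) between 2 libraries, which understates the change of genes at low levels. A gene entered a comparison when its FPKM averaged 1 or more over the pair of libraries. It is called higher or lower when the difference is past 0.3 in size. A gene below 1 in 1 library of the pair can pass only through the other, which fixes its direction. Of all genes that passed, 15.8% were higher and 8.35% lower with 6-OHDA. With SP these shares were 11.7% and 19.8%, and between the controls 55.7% and 26.6%. The counts of every list below stand beside these shares. The 6-OHDA comparison shares the control cell library, and the SP comparison the control colony library, with the comparison between both controls. The depth was not given and could only be estimated, from the steps between low values of 306 to 371 genes with a single transcript, at about 15.7 to 18.8 fragments per FPKM and kilobase in the 4 libraries.

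The basal identity of the libraries was checked with 10 basal markers, none of which was at 0 in any library. Their summed FPKM was 11362 in control cells, 10398 in 6-OHDA cells, 6797 in control colonies and 14662 in SP colonies, and the keratin gene Krt14 was the most abundant of them in all 4 libraries. Some contractile genes of this list were far lower in the colonies and others less so. The smooth muscle myosin gene Myh11 stood at 467, 449, 11.2 and 21.4, the calponin gene Cnn1 at 515, 537, 30.4 and 61.8, and the smooth muscle actin gene Acta2 at 1949, 2575, 402 and 722. Of the 10 basal markers, 1 was higher and 2 were lower with 6-OHDA (median 0.08), against 15.8% and 8.35% of all genes. With SP 6 were higher and 1 lower (median 0.86), against 11.7% and 19.8%. In control colonies against control cells 1 was higher and 8 were lower (median -1.80), against 55.7% and 26.6%. Of 10 luminal markers, none was at 0, and their sum was 1258, 1179, 2207 and 2023, with Krt8 the most abundant in each library. Among the luminal markers, 2 were higher and 4 lower with 6-OHDA (median -0.17), against 15.8% and 8.35% of all genes. With SP 1 was higher and 3 were lower (median -0.07), against 11.7% and 19.8%. After scaling by the median ratio 2 were higher and 2 lower with SP (median -0.01). In the control colonies 7 were higher and 1 lower (median 0.67), against 55.7% and 26.6%. After the same scaling 5 were higher and 3 lower there (median 0.16).

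RNA of other cell types was also present in the sorted libraries. The summed FPKM of 11 endothelial and pericyte markers was 318, 320.5, 3.66 and 2.56. Most of them passed the filter between the controls through the control cells alone, so no count is given for that comparison. Pecam1, which encodes the CD31 protein that the gate removes, was the most abundant in both sorted libraries, at 107 in control cells and 93.0 in 6-OHDA cells against 1.39 and 1.56 in the colonies. With 6-OHDA 3 of these 11 were higher and none lower (median 0.01), against 15.8% and 8.35% of all genes. Of the 2 that passed the filter between the colonies 1 was lower with SP (median -0.29). That gene, Pdgfrb, passed only through the control colonies, so its direction was fixed by the filter. Kcnj8 was at 0 in both colony libraries, and 3 of the 11 were at 0 in SP colonies. Fibroblast markers summed to 187, 387, 40.2 and 12.8, with Dcn the most abundant in the sorted libraries, Col1a2 in control colonies and Pdgfra in SP colonies. Of 10 fibroblast markers, 8 were higher with 6-OHDA (median 0.81), against 15.8% of all genes. Among them was the collagen gene Col3a1, at 18.3 and 91.7 in the sorted libraries. Fap and Pi16 passed the filter there only through the 6-OHDA library. With SP 4 of 5 were lower (median -0.98), against 19.8% of all genes, and Col3a1 passed there only through the control colonies. In control colonies 5 of 7 were lower (median -1.67), against 26.6% of all genes. There 1 was higher, Pdgfra, at 2.62 in control cells and 9.95 in control colonies, and Lum and Dpt passed only through the control cells. The direction of genes that passed through 1 library alone was fixed by the filter. In SP colonies 3 of the 10 were at 0. Leukocyte markers summed to 14.7, 13.4, 3.37 and 4.69, led by Cd68 in each library. Of the 15, 1 was at 0 in 6-OHDA cells, 12 in control colonies and 9 in SP colonies. Ptprc, which encodes CD45, was at 0.77 and 0.47 in the sorted libraries and at 0 in both colony libraries. None of the 4 leukocyte markers that passed the filter was past the threshold with 6-OHDA (median -0.0008) and neither was the 1 that passed with SP (median 0.20). Between the controls the 3 that passed were Cd68, at 6.05 in control cells and 2.70 in control colonies, and Cd79a and Lyz2, which passed through the control cells alone.

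The 6-OHDA library stood apart by its salivary gland transcripts. Of 12 salivary genes, 7 were at 0 in control cells, 1 in 6-OHDA cells, 7 in control colonies and 6 in SP colonies, and the sums were 2.94, 15798, 1.66 and 2.43, which is 3.05% of all FPKM of the 6-OHDA library. The secretory protein gene Bpifa2 was the most abundant, at 7277 in 6-OHDA cells and 0 in control cells. Most of these genes passed the filter through the 6-OHDA library alone, so no count is given for that comparison, and Bhlha15 and Muc19, which did not pass it, were at 0.97 and 0 in control cells and 0.87 and 0 in 6-OHDA cells. Between the colonies none passed the filter, and between the controls 1 passed and was within the threshold (median -0.16). Because FPKM is a share of all fragments, these transcripts lower the other values of that library. The part of these other cells and tissues in the values of the transcription factors was not tested. In such bulk libraries, fewer cells of a type and less RNA per cell cannot be told apart.

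The transcription factors were counted in each comparison beside all genes. With 6-OHDA none of the 8 that passed the filter was higher, where 15.8% of all 11749 genes were, and 2 of 8 were lower, Runx1 and Klf4, where 8.35% of all genes were (median -0.10, against 0.06 over all genes). With SP 5 of 9 were higher, Trp63, Trp73, Myc, Klf4 and Klf5, against 11.7% of all 11849 genes, and 1 of 9 was lower, Bcl11a, against 19.8% (median 0.39, against -0.07 over all genes). Scaling by the median ratio changed the split of all genes from 1857 higher and 981 lower to 1373 and 1346 with 6-OHDA, and from 1385 and 2351 to 1748 and 1757 with SP. It left the counts of factors with 6-OHDA as they were and added Sox9 to those higher with SP, at 0.35.

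Between the controls, 2 of 10 factors were higher in colonies, Trp73 and Bcl11a, where 55.7% of all 12244 genes were, and 6 of 10 were lower, Sox10, Runx1, Tbx2, Myc, Klf4 and Klf5, where 26.6% of all genes were. Trp73 and Bcl11a passed the filter only through the control colonies and Tbx2 only through the control cells, so their direction was fixed by the filter and nothing is read from these counts. The median of the 10, which includes these genes, was -0.94, and nothing is read from it either. Here the median of all genes was itself at 0.45, with 6817 higher and 3252 lower, and scaling by the median ratio gave 4896 higher and 4849 lower. Relative to that scaling 2 factors were higher and 8 lower, with a median of -1.44, under the same limit of the filter. The libraries of this comparison differ in sorting, culture and time together, and these cannot be told apart.

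**Figure D1:**
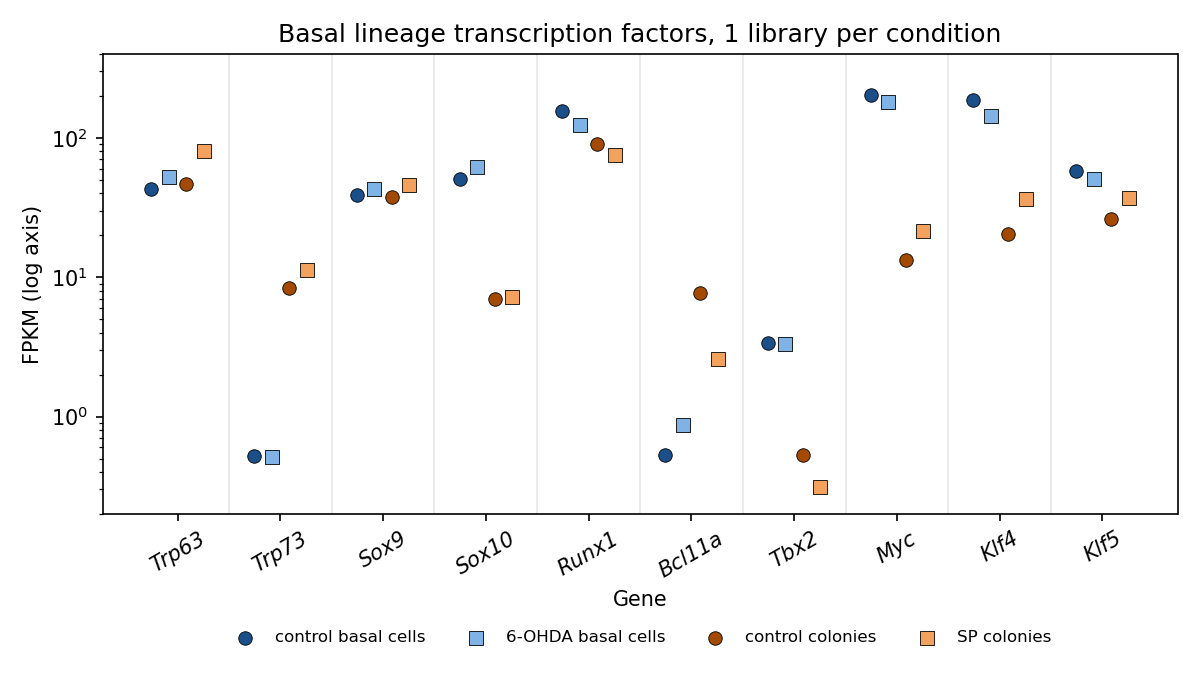
FPKM (log axis) of the 10 basal lineage transcription factors in the 4 libraries, with 1 point per library and circles for controls, squares for treated. Sox9 has the narrowest range (0.28 in log2(FPKM + 1)), Trp63 is highest in the SP colonies, Sox10, Myc and Klf4 are lower in both colony libraries, and Trp73 and Bcl11a are higher there.

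Trp63 (NCBI Gene 22061, chr16:25683763-25892088 in GRCm38.p6) encodes p63, the factor without which layered epithelia and mammary buds do not form. The FPKM of Trp63 was 42.8 in control cells, 52.6 in 6-OHDA cells, 46.5 in control colonies and 80.9 in SP colonies. The SP colonies were thus the highest of the 4 libraries, at 1.74 times the control colonies, a difference of 0.79 that stayed between 0.74 and 0.86 over the alternatives. The difference with 6-OHDA, 0.29, was inside the threshold. Between the controls it was 0.12 and changed sign under 4 of 8 alternatives, down to -0.38, so its direction depends on the scaling. In basal epithelium most p63 is the ΔN form, which lacks the first activation domain, but ΔN and full-length forms cannot be told apart in a value per gene.

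Trp73 (22062, chr4:154056249-154139875) encodes p73, the closest relative of p63, known for its part in ciliated cells and neurons. Trp73 was at 0.52 in control cells, 0.51 in 6-OHDA cells, 8.31 in control colonies and 11.2 in SP colonies. It was low in both sorted libraries and present in both colony libraries, and the 0.52 stands for about 3 to 44 fragments, depending on which transcript is counted. Its difference between the controls was 2.61, or 2.30 after scaling by the median ratio. With SP it was 0.39, and 0.28 with a pseudocount of 5. Trp53, the founder of the family, was at 80.4, 71.6, 92.8 and 78.7 in the same order, a name chosen after its values were seen.

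Genes that p63 is known to bind and turn on were higher with SP as a list. Of 17 such genes, 11 of the 15 that passed the filter were higher with SP and 1 was lower (median 0.63). Of all genes 11.7% were higher and 19.8% lower there, with a median of -0.07. With 6-OHDA 1 of 17 was higher and 2 were lower (median -0.13), against 15.8% and 8.35% of all genes. Between the controls 6 were higher and 8 lower (median -0.15, or -0.65 after scaling by the median ratio), against 55.7% and 26.6%. Satb1 passed there only through the control cells, so its direction was fixed by the filter. The genes Krt5, Krt14 and Itga6 of this list are also among the 10 basal markers. Krt5, a keratin of basal cells, stood at 1002, 869, 1888 and 4579, so that the SP colonies had the highest value and the sorted libraries the lowest. Krt14, its partner in the filament, was at 3595, 2633, 3298 and 6920, lower with 6-OHDA (-0.45) and higher with SP (1.07). Perp, a desmosome protein gene, was at 173, 247, 548 and 1028, and was higher in all 3 comparisons (0.51, 0.91 and 1.65). Dst, which encodes a linker of keratin to hemidesmosomes, was at 108, 100.01, 34.6 and 59.1, lower in colonies and partly higher again with SP.

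Cornifying genes, which layered skin epithelia switch on when basal cells differentiate, were also higher with SP. Of 14 such genes, 9 of the 11 that passed were higher with SP and none was lower (median 1.06), against 11.7% and 19.8% of all genes. With 6-OHDA 3 of 8 were higher and 1 lower (median 0.20), against 15.8% and 8.35%. Between the controls 6 of 10 were higher and 2 lower (median 1.48), against 55.7% and 26.6%. Krt1, whose value is the median with SP, passed with 6-OHDA and with SP only through the treated library. Sprr1b, Grhl3 and Zfp750 passed between the controls only through the control colonies. The direction of these was fixed by the filter, and nothing is read from the counts between the controls. Krtdap, a secreted protein of differentiating keratinocytes, was at 1.21, 1.79, 29.5 and 528, low in sorted cells and highest in SP colonies (difference with SP 4.11). Sprr1b, a precursor of the cornified envelope, was listed at 0 in control cells and at 0.43, 2.83 and 24.6 in the other libraries. Sbsn, a secreted protein of the upper epidermis, was at 3.85, 3.30, 47.9 and 142.

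Sox9 (20682, chr11:112782210-112787757) encodes an HMG-box factor of progenitors in many glands. Sox9 was at 39.1, 42.7, 37.9 and 46.1 in control cells, 6-OHDA cells, control colonies and SP colonies. It varied least of the 10 over the 4 libraries, with a range of 0.28 in log2(FPKM + 1). Its differences were 0.12 with 6-OHDA, 0.28 with SP and -0.04 between the controls, all within the threshold, and that between the controls was -0.54 after scaling by the median ratio.

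Sox10 (20665, chr15:79154913-79164490) encodes a related factor, best known from the neural crest and glia and also made by mammary basal and progenitor cells. Sox10 was at 50.6 in control cells, 61.9 in 6-OHDA cells, 6.99 in control colonies and 7.19 in SP colonies. The sorted libraries were high and both colony libraries low, 7.24-fold apart between the controls (difference -2.69, or -3.16 after scaling). With 6-OHDA the difference was 0.29, and with SP 0.04. Since Sox10 also marks Schwann cells, 9 of their markers were read beside it. Their summed FPKM was 36.6, 41.4, 43.2 and 30.9, with Mbp the most abundant in the sorted libraries and Erbb3 in the colonies. Gfra3 was at 0 in control and SP colonies and Foxd3 at 0 in SP colonies. Of the 4 Schwann markers that passed, 1 was higher with 6-OHDA (median 0.17), of 3 that passed 2 were lower with SP (median -0.53), and of 4 that passed 2 were higher and 2 lower between the controls (median 0.81). Their part in the value of Sox10 was not tested. Sox8, the third SOX gene of this subgroup, was at 6.44, 4.96, 6.78 and 3.44, lower with 6-OHDA (-0.32) and with SP (-0.81).

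Runx1 (12394, chr16:92601466-92826074) encodes a Runt-domain factor that binds DNA with the partner CBFB and acts in blood and in mammary epithelium. Runx1 was at 157, 123, 90.8 and 75.6 in control cells, 6-OHDA cells, control colonies and SP colonies. It was the highest of the 10 in control colonies and the second highest in SP colonies, after Trp63. The differences were -0.34 with 6-OHDA and -0.78 between the controls (-1.29 after scaling). That with SP, -0.26 (-0.19 after scaling), was inside the threshold. Cbfb was at 39.2, 52.8, 84.6 and 73.1, highest in the control colonies and so opposite to Runx1 between the controls. Of the 3 Groucho corepressors on the list of RUNX1 partners, Tle3 was at 71.3, 56.7, 21.6 and 20.6, Tle4 at 13.3, 13.0, 1.43 and 0.87, and Tle1 at 45.9, 41.0, 46.9 and 35.4. Tle3 and Tle4 were lower in control colonies than in control cells, while Tle1 was within the threshold there (0.03, or -0.47 after scaling). Over the 4 partners, 1 was higher and 1 lower with 6-OHDA (median -0.09), against 15.8% and 8.35% of all genes. With SP none was higher and 2 were lower (median -0.29), against 11.7% and 19.8%. Between the controls 1 was higher and 2 were lower (median -0.83), against 55.7% and 26.6%. Tle4, lower with SP, passed between the colonies only through the control colonies, so its direction was fixed by the filter. The relative Runx3 was at 0.13, 0.08, 6.18 and 6.63, near 0 in sorted cells only.

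Bcl11a (14025, chr11:24076564-24173558) encodes a zinc-finger repressor known for silencing fetal globin and, in the mammary gland, for its part in progenitors. Bcl11a was at 0.53, 0.87, 7.67 and 2.60. It was the second lowest of the 10 in both sorted libraries, highest in control colonies, and lower again with SP by 2.95-fold (difference -1.27). The difference between the controls was 2.50, or 2.19 after scaling, and the value of control cells stands for about 12 to 53 fragments. The related Bcl11b was at 1.91, 1.44, 8.20 and 10.6, low in sorted cells as well, but higher and not lower with SP (0.34).

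Tbx2 (21385, chr11:85832615-85841948) encodes a T-box repressor that acts in mammary bud formation and holds back genes of growth arrest. Tbx2 was at 3.40, 3.34, 0.53 and 0.31, about 202, 188, 32 and 19 fragments. It was low everywhere and lower in the colonies, by 6.42-fold between the controls (difference -1.52, or -1.81 after scaling). With 6-OHDA the difference was -0.02, and between the colonies it did not pass the filter. Tbx3, named after its values were seen, was at 12.1, 12.6, 5.81 and 6.50, likewise lower in the colonies (-0.94).

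Myc (17869, chr15:61985341-61990361) encodes the growth factor-responsive regulator of ribosome and nucleotide production. Myc was at 204 in control cells, 181 in 6-OHDA cells, 13.3 in control colonies and 21.6 in SP colonies. It was the highest of the 10 in both sorted libraries and the sixth in both colony libraries, and was 15.4-fold lower in control colonies than in control cells (difference -3.85, or -4.33 after scaling), the largest difference of the 10 there in log2(FPKM + 1). As a ratio of FPKM, Trp73 moved about as far, 16.0 times as high in control colonies. With SP it was 1.63 times as high as in control colonies (0.66), still far below sorted cells, and with 6-OHDA the difference was -0.17. Of 17 genes that MYC is known to drive, 12 were lower in control colonies too and 2 higher (median -1.39), against 26.6% and 55.7% of all genes. After scaling 15 were lower and 1 was higher (median -1.89). With 6-OHDA none was higher and 4 of 17 were lower (median -0.11), against 15.8% and 8.35% of all genes. With SP 3 were higher and none lower (median 0.11), against 11.7% and 19.8%. Odc1, for the first step of polyamine synthesis, was at 495, 433, 95.03 and 137, and Srm, for the next, at 105, 101, 30.5 and 42.1, so both followed the order of Myc over the 4 libraries. Nolc1, a nucleolar protein gene, was at 129, 102, 28.2 and 30.2. Cdk4, a cell cycle kinase gene of the same list, went the other way, at 55.6, 68.5, 251 and 220. Of 8 dimer partners and antagonists around MYC, none was higher and 1 of 7 lower with 6-OHDA (median 0.01), against 15.8% and 8.35% of all genes. With SP none was higher and 2 were lower (median -0.15), against 11.7% and 19.8%. Between the controls 4 were higher and 2 lower (median 0.38, or -0.10 after scaling, a change of sign), against 55.7% and 26.6%. Mxd3, higher there, passed only through the control colonies, so its direction was fixed by the filter. Mxd1, an antagonist that competes for MAX, was at 15.2, 8.84, 4.97 and 4.77, highest in control cells and lower with 6-OHDA (-0.71).

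Klf4 (16600, chr4:55527137-55532475) encodes a Krüppel-like factor needed for the skin barrier and known from reprogramming. Klf4 was at 188, 144, 20.3 and 36.6, the second highest of the 10 in both sorted libraries. It was lower with 6-OHDA (-0.38), 9.24-fold lower in control colonies than in control cells (difference -3.15, or -3.64 after scaling), and 1.80 times as high with SP as in control colonies (0.82). Klf5 (12224, chr14:99298691-99313412), which acts in dividing basal layers, was at 57.4, 50.8, 26.2 and 37.3. The order of its libraries was that of Klf4, with smaller distances: -0.17 with 6-OHDA, 0.49 with SP and -1.10 between the controls (-1.60 after scaling). Klf10, a TGF-β response gene of the same family, was at 142, 115, 22.5 and 31.1, again in the same order, and Klf2 at 11.9, 12.6, 4.07 and 1.19, lower with SP (-1.21). Over the 12 relatives of all factors, none was higher and 2 of 11 were lower with 6-OHDA (median -0.16), 2 higher and 3 lower of 11 with SP (median -0.05, or 0.01 after scaling, with 2 lower), and 5 higher and 5 lower of 12 between the controls (median 0.13, or -0.34 after scaling), so that the sign of the median changed with the scaling in both of these.

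Myc and Klf4 are also known as early response genes, which are switched on within a short time of a stimulus and during tissue dissociation. A list of 10 other early response genes, chosen after the data were seen, was therefore read beside them. Their summed FPKM was 4514, 3782, 1821 and 1214, none was at 0, and the most abundant was Fos in both sorted libraries, Junb in control colonies and Jun in SP colonies. Between the controls 9 of 10 were lower and 1 higher (median -1.19, or -1.69 after scaling), against 26.6% and 55.7% of all genes. The exception was Jun, at 0.31, which changed sign to -0.20 after scaling. Fosb was at 288, 232, 19.2 and 13.5, and Egr1 at 507, 394, 34.9 and 28.5, both high in sorted cells and low in colonies, like Myc. With 6-OHDA none was higher and 4 of 10 were lower (median -0.26), against 15.8% and 8.35% of all genes. With SP none was higher and 8 of 10 were lower (median -0.52), against 11.7% and 19.8%, where Myc, Klf4 and Klf5 were higher. After scaling 5 were lower with 6-OHDA (median -0.32) and 7 with SP (median -0.45). The part of such an early response in the values of Myc and Klf4 was not tested.

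Other factors of the basal layer were read beside these. Of 8, 1 was higher and 1 lower of 7 with 6-OHDA (median 0.05), against 15.8% and 8.35% of all genes. With SP 3 were higher and 1 lower (median 0.24), against 11.7% and 19.8%. Between the controls 2 were higher and 3 lower (median -0.17), against 55.7% and 26.6%. After scaling by the median ratio none was higher and 1 lower with 6-OHDA (median -0.007), and 4 higher and 1 lower with SP (median 0.31). Between the controls 1 was then higher and 5 were lower (median -0.65). Snai2, which encodes a repressor that acts in basal and stem cells, was at 42.4, 41.4, 12.0 and 20.0. It was lower in colonies and partly higher again with SP, as Myc was. Bnc1, a zinc-finger gene of basal keratinocytes, was at 32.7, 22.9, 19.0 and 27.6, lower with 6-OHDA (-0.49) and higher with SP (0.51). Nfib was at 22.6, 29.0, 66.7 and 42.03, highest in control colonies. Factors of luminal cells were read as the other side of the lineage. Of 11, 2 were higher and 2 lower of 9 with 6-OHDA (median 0.07), against 15.8% and 8.35% of all genes. With SP none was higher and 7 were lower (median -0.31), against 11.7% and 19.8% of all genes. After scaling by the median ratio 3 were lower with SP (median -0.24). Between the controls 6 were higher and 3 lower (median 1.03, or 0.55 after scaling), near the 55.7% and 26.6% of all genes. Elf5 and Spdef passed the filter there only through the control colonies, so their direction was fixed by it. Elf5, of alveolar progenitors, was at 0.63, 1.02, 22.5 and 18.1, and Ehf, another ETS factor, at 2.59, 6.26, 47.5 and 51.8, both low in control cells and higher in colonies, as Trp73 and Bcl11a were. Foxa1, of hormone-sensing cells, was at 1.42, 1.98, 15.2 and 8.32, and lower with SP (-0.80).

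**Figure D2:**
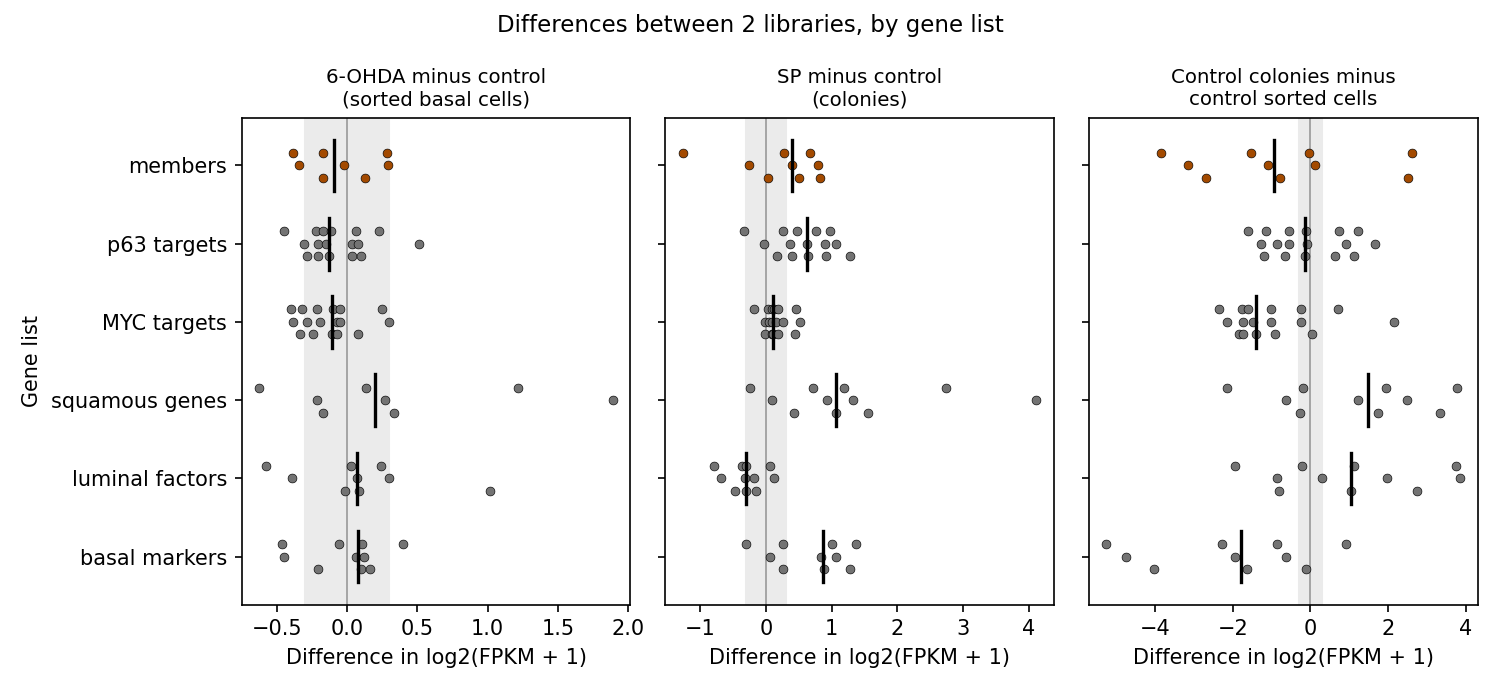
Differences in log2(FPKM + 1) for the 10 factors and 5 other gene lists, with 1 point per gene that passed the filter, the list's median as a black line and the threshold of 0.3 as a grey band. With SP the medians of the factors (0.39), the p63 targets (0.63), the cornifying genes labelled squamous (1.06) and the basal markers (0.86) lie above the band. Between the controls those of the MYC targets (-1.39) and the basal markers (-1.80) lie below it. The median of the factors there (-0.94) includes Trp73, Bcl11a and Tbx2, whose direction was fixed by the filter, and nothing is read from it. The cornifying genes with SP include Krt1, which passed only through the SP colonies.

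The order of levels differed between sorted cells and colonies. In both sorted libraries it began with Myc, Klf4 and Runx1 and ended with Tbx2, Bcl11a and Trp73. In control colonies it began with Runx1, Trp63 and Sox9, and in SP colonies with Trp63, Runx1 and Sox9, and Klf5, Klf4 and Myc followed in both. Tbx2 was the lowest of the 10 in both colony libraries. The summed FPKM of the 10 was 743, 661, 258 and 320. With 1 library per condition, it is not known which neighbours in these orders would change places in another library.

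For the 8 factors that ranged over at least 1 in log2(FPKM + 1), the 3 genes of most similar profile over the 4 libraries were taken from 9101 genes, by the distance of values centred on each gene's mean. Nearest to Trp73 were Tmem54, Chst2 and Zfp750, the last at 0.84, 0.94, 9.34 and 12.9 and on the list of cornifying genes. Nearest to Sox10 were Synm, Egr3 and Ggt1, with Egr3 at 37.7, 40.4, 4.20 and 4.81. Nearest to Bcl11a was Mia, at 52.6, 67.2, 313 and 119, followed by Slc29a1 and Gxylt2. All of these share the split between sorted cells and colonies. Nearest to Myc were Egfl7, at 40.6, 37.5, 1.74 and 3.59, Ubash3b and Hbegf, which encodes a ligand of the EGF receptor. Nearest to Klf4 were Pxdc1, Lrg1 and Card10, and to Klf5 Ybx3, Eif6 and Spata5l1. Runx1 had Zfp574, Maml1 and Ddx24, and Tbx2 had Trmt10c, Lonrf1 and Dmwd. With only 4 libraries many genes share such a profile.

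Promoter sequence was taken from a set of windows of 250 bases before a start of transcription, drawn from RefSeq for GRCm38.p6. That set held 6 windows for 4 of the 10 factors, although all 10 have coordinates in the annotation. The windows of Klf4, Trp73 and Runx1 are shown because Klf4 moved with Klf5 and Myc, and because Trp73 and Runx1 each have a pair of starts whose transcripts are added together in the values above. Bcl11a was the fourth, and its window is not shown. Capitals mark GGGCGG and CACCC, letters that Krüppel-like factors and SP1 are known to bind, on either strand. GGGCGG occurs in 32.7% of 32851 such windows and CACCC in 52% of them. The E-box CACGTG, bound by MYC and many other factors and held by 6.02% of windows, was searched too and is left in lower case, as was the RUNX core TGTGGT, held by 14%. The 5 windows shown lie on the minus strand and are written 5′ to 3′. That of Klf4 is chr4:55532476-55532725, with 4 matches to GGGCGG and 1 to CACGTG. Those of Trp73 are chr4:154139876-154140125 before the upstream start, with 2 matches to CACCC, and chr4:154097174-154097423 before the internal start, with 1 match to GGGCGG. Those of Runx1 are chr16:92826075-92826324 before the distal start, with 1 match to CACGTG, and chr16:92697330-92697579 before the proximal start, with 2 matches to CACCC. None of the 5 holds TGTGGT. A match describes the letters alone.
Klf4: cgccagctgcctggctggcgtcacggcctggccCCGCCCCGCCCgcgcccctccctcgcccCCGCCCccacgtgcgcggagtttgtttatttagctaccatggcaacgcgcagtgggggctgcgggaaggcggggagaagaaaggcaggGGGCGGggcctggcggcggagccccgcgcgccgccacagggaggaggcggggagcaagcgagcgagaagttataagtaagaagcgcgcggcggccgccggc
Trp73 upstream start: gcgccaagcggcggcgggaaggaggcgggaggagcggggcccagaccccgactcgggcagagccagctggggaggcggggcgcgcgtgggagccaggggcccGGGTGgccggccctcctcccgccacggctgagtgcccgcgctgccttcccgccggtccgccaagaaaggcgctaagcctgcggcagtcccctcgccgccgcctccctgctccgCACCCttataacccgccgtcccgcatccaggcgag
Trp73 internal start: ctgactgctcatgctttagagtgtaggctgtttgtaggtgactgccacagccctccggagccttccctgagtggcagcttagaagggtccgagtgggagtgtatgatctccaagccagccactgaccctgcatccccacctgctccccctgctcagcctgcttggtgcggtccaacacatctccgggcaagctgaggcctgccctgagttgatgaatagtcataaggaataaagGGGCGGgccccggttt
Runx1 distal start: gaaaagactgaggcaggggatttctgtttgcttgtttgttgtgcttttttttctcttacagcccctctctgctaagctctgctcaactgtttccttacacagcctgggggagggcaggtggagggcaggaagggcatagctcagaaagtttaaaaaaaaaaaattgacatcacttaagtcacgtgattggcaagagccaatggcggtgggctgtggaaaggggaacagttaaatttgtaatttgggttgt
Runx1 proximal start: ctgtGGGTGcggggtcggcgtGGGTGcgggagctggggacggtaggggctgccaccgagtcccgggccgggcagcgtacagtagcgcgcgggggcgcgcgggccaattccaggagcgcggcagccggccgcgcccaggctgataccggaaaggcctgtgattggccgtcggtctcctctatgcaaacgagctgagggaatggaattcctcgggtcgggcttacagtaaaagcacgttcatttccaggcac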

How the data were processed

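RNA was measured in 4 libraries, 1 per condition. The authors deposited FPKM values per gene with 2 decimals. The submitters' processing notes name Bowtie2, RSEM 1.3.1 and the build mm10 without saying what each did, and the annotation is not given in the sources used here. FPKM sums were 508071, 517504, 577631 and 588202, and 17512 of 17630 gene numbers matched a symbol in the RefSeq table of GRCm38.p6. Differences of log2(FPKM + 1) were computed in Python 3.11.15 with numpy 2.4.6 and pandas 2.3.3, at a mean FPKM of at least 1 and a threshold of 0.3, without any test, and the code was tested on simulated data. Figures were drawn with matplotlib 3.10.9. The depth estimate assumed fragments of 150 to 300 bases, and fragment numbers of a gene 250. The text names all 10 factors and 3 nearest genes for each that varied. Examples of 15 other gene lists come from the 3 genes with the largest difference per comparison or, for lists of up to 8, from all, and not each of these is named. Single further genes were chosen after their values were seen, as were the early response genes. The factors and lists were chosen with earlier results of these data known. The alternatives were other pseudocounts, filters, scalings and a stricter threshold. Some values of single genes are not reported here.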

Additional observations from a re-analysis of the deposited data

How the results depend on the processing

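The 27 differences of the 10 factors that passed the filter were recomputed under 7 or 8 alternatives each, since some did not reach the stricter filter, and 21 kept their side of the threshold in all that gave a value. The other 6 crossed it under at least 1. Trp63 and Sox10 with 6-OHDA reached 0.31 and 0.30 when the values were rescaled without the salivary gland genes, an alternative chosen after seeing the data, which gave 2 factors higher with 6-OHDA. Sox9 with SP reached 0.35, Sox9 and Trp63 between the controls -0.54 and -0.38, and Trp73 with SP 0.28. Trp63 between the controls was the 1 that changed sign. With a pseudocount of 5, 804 genes were higher and 539 lower with 6-OHDA, and 1276 lower with SP. With an average FPKM of 5 or more required, 1066 were higher and 639 lower with 6-OHDA, and no factor (0) was higher between the controls, because Trp73 and Bcl11a did not pass. With a threshold of 1, 123 genes were higher and 106 lower with 6-OHDA, 237 and 158 with SP, and 3761 and 1619 between the controls, while 0 factors were lower with 6-OHDA and 0 higher with SP, as follows from a stricter threshold. For the other changes the cause was not tested. Few fragments stand behind Trp73 and Bcl11a in sorted cells and Tbx2 in colonies, whose levels are low there, and with 1 library per condition no difference can be set against the spread between animals or cultures. No paired analysis was possible because each condition has 1 library.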
